A study of Mus musculus with 3 samples.

Results

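Chil3, Hp, Plac8, Lrg1, Lyz1, Lyz2 and Dmkn are 7 of the 27998 genes in each count table, and they were taken by symbol as genes of monocyte secretion and granules. Their RNA was followed in macrophages of the sciatic nerve from inbred C57BL/6 mice, in 3 droplet libraries of single cells. In time order these are an uninjured nerve (steady state), a nerve taken 1 day after crush and one taken 5 days after it, crush being an injury that breaks the axons. All used 10x Genomics chemistry version 1; gating and pooling of mice were not given in the sources used here. There was 1 library per time, so every comparison is between libraries, has no replicate check and carries no p-value.

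Monocytes leave the bone marrow with secreted and granule proteins that are made early in myeloid development, and they enter injured tissue from the blood, where they turn into macrophages. Chil3 (Ym1) encodes a secreted chitinase-like lectin without enzyme activity, Hp encodes haptoglobin, which binds free haemoglobin, and Lrg1 encodes a secreted leucine-rich glycoprotein of the acute-phase response. Plac8 encodes a small cysteine-rich protein of myeloid and lymphoid cells. Lyz1 and Lyz2 encode lysozymes, which cut bacterial cell walls, and in the mouse Lyz2 is the myeloid form and Lyz1 is known from Paneth cells of the gut. Dmkn (dermokine) encodes a secreted protein best known from the epidermis.

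The genes lie on 6 chromosomes of GRCm38 in the GENCODE M21 annotation, with Lyz1 and Lyz2 side by side on chromosome 10, Chil3 on 3, Plac8 on 5, Dmkn on 7, Hp on 8 and Lrg1 on 17. All 7 are annotated as protein coding. RefSeq promoters (GRCm38.p6) matched 6 of the 7 genes, Hp being the one without an entry. The windows below hold 250 bases before the annotated start and the first 30 bases after it, read 5′ to 3′ on the minus strand of each gene. Lyz1 and Lyz2 are shown because they are close copies, and the capitals mark the bases that differ between them. Most of each window lies before the annotated start, outside the transcript, so it does not show how counts were split between the copies. The Lyz1 window is chr10:117292839-117293118 and the Lyz2 window is chr10:117282243-117282522.
Lyz1: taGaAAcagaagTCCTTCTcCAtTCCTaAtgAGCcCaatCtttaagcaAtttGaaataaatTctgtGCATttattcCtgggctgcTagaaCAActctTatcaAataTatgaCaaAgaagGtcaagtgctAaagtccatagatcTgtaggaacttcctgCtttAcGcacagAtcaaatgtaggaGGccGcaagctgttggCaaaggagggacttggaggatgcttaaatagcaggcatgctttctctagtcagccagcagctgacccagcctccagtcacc
Lyz2: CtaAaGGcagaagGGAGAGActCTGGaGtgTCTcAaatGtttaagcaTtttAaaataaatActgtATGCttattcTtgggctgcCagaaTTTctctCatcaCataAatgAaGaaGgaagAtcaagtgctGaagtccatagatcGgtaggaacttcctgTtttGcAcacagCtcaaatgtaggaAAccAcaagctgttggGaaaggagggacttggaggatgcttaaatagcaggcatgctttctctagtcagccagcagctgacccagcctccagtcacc
Over 280 bases each, 230 bases were identical (82.1%), with 48 substitutions and 2 gaps in either sequence, and the capitals lie mostly in the part farthest from the start.

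Chil3 and Lrg1 are shown because they were high together in the day 1 library. Capitals mark TATAAA and TTNNGNAA, a loose form of the motif that C/EBP factors of myeloid cells bind. The Chil3 window is chr3:106167535-106167814 and the Lrg1 window is chr17:56121917-56122196.
Chil3: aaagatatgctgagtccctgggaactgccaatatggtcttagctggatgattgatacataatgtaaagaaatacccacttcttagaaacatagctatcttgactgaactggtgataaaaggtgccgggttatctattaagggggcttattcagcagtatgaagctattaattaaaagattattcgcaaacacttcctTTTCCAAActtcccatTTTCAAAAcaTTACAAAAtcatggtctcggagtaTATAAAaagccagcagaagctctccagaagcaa
Lrg1: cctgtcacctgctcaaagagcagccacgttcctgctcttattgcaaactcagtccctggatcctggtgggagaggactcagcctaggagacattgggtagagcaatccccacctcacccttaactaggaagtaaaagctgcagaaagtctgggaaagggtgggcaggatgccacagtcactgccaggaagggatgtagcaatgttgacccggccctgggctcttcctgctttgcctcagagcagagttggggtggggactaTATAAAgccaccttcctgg
In Chil3, TATAAA stood at the annotated start. TTNNGNAA stood 3 times, each on the strand opposite to the gene, with no overlap between the matches. As printed, these stretches begin 53, 37 and 27 bases before the annotated start. In Lrg1, TATAAA began 12 bases after the annotated start and no TTNNGNAA was in the window. Searched on both strands, TATAAA is found in 13.1% and TTNNGNAA in 39.3% of 32851 promoter windows of the same length, so a match is a description and not a site.

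The barcodes numbered 731, 2796 and 2059 for steady state, day 1 and day 5, as the labels state, with 1658022, 7975791 and 5524496 UMIs (unique molecular identifiers, which count captured RNA molecules). Levels below are summed over 717, 2729 and 2026 monocyte and macrophage cells and given as CPM (a gene's UMIs scaled to a common library total), with no correction for gene length. Macrophage genes were present in all 3 libraries: Cd68 had 1034, 971.2 and 727.7 CPM, and the complement gene C1qa had 7954, 1587 and 5290 CPM. Intervals are 95% and cover counting error only. The libraries shared few barcodes: 2 between day 1 and steady state, 3 between day 5 and steady state and 11 between day 5 and day 1, and the profiles of the shared ones had correlations of at most 0.58.

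Most of the genes shared 1 pattern: Chil3, Hp, Plac8, Lrg1 and Dmkn were near 0 at steady state, highest at day 1 and lower again at day 5. Lyz2 was among the 3 most abundant genes of every library and differed little between them. Summed over cells, Lyz1 was lower at day 1 than in the other libraries, but its steady-state level rested on few cells.

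Chil3 had 9.88 CPM at steady state (16 UMIs, interval 5.65 to 16.0), 722.6 CPM at day 1 (5567 UMIs, 703.8 to 741.9) and 54.9 CPM at day 5 (297 UMIs, 48.8 to 61.5). Day 1 was thus 73.1-fold above steady state (45.0 to 128), and day 5 was 13.2-fold below day 1 (11.7 to 14.8). Plac8 reached the highest level of these genes apart from Lyz2, with 19.8, 1001 and 468.4 CPM in time order. Its day 1 level was 50.6-fold the steady-state level (35.8 to 74.1), and its day 5 level was 2.14-fold below day 1 (2.04 to 2.24). That last ratio passes below 2-fold (log2 ratio -0.95) when libraries are scaled by median-of-ratios factors. The day 5 deficit was smaller for Plac8 than for Chil3, and the intervals do not overlap.

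Hp, whose product is otherwise known as a liver protein of plasma, had 4.32, 314.1 and 100.2 CPM, the steady-state level resting on 7 UMIs. The day 1 level was 72.7-fold above steady state (35.2 to 181). The day 5 level was still 23.2-fold above steady state (11.2 to 57.9) and 3.14-fold below day 1 (2.86 to 3.45). Lrg1 had 1.85, 81.0 and 16.6 CPM, with 3, 624 and 90 UMIs, and was 43.7-fold higher at day 1 than at steady state (14.9 to 213). Dmkn had 72.8 CPM at day 1 (561 UMIs) against 0 UMIs at steady state. It was 39.3-fold higher with the absent count set to 3 counts in the library, and its exact interval began at 31.9-fold. It had 3.33 CPM at day 5 (18 UMIs), which was 21.9-fold below day 1 (13.7 to 37.2).

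**Figure D1:**
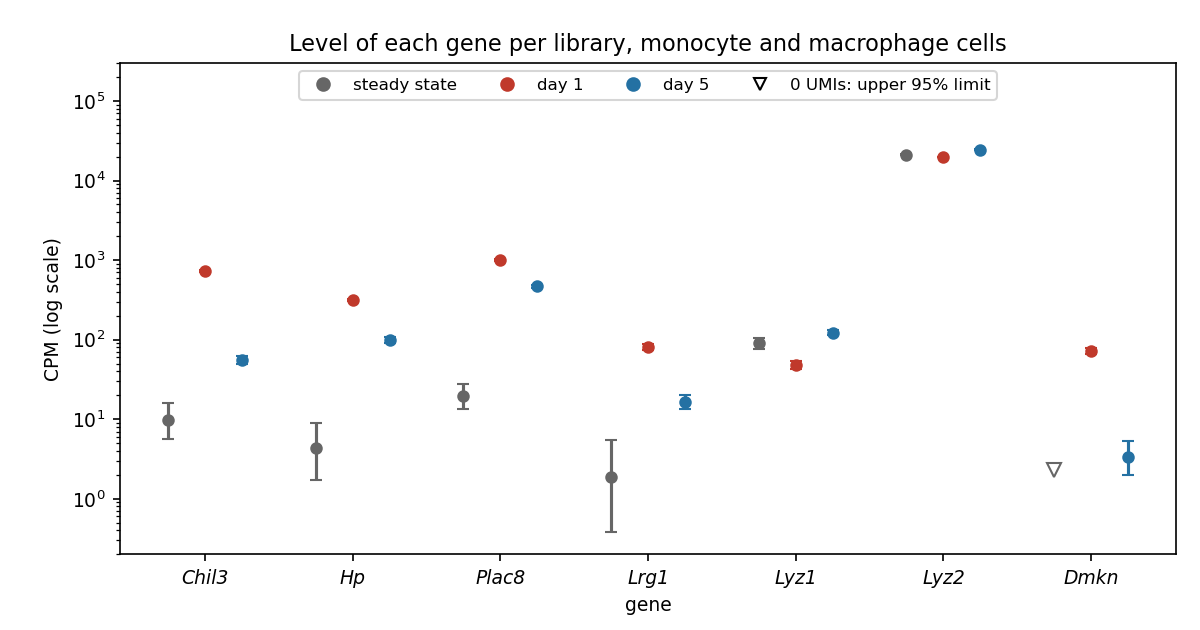
Level of each gene in CPM on a log axis in the steady state, day 1 and day 5 libraries, with exact Poisson 95% intervals; an open triangle marks the upper limit where no UMI was counted. Chil3, Hp, Plac8, Lrg1 and Dmkn sit highest at day 1, and Lyz2 stays between 19807 and 24466 CPM.

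Lyz2 had 21076, 19807 and 24466 CPM, between 1.98% and 2.45% of all UMIs. Its day 1 level was 1.06-fold below steady state and its day 5 level 1.24-fold above day 1; both intervals exclude 1, with 34128 or more UMIs behind each level. Lyz1 had 90.2, 48.2 and 122.2 CPM. Its day 1 level was 1.87-fold below steady state (1.54 to 2.27), and its day 5 level was 2.54-fold above day 1 (2.23 to 2.89). Outside the 10 cells with most Lyz1 in each library, Lyz1 made up 0.193% of lysozyme UMIs at day 1 (0.171 to 0.216). At steady state it made up 0.141% (0.103 to 0.187), an interval that overlaps. These cells were picked by their Lyz1 count, and 10 is a larger part of 717 steady-state cells than of 2729 day 1 cells. Leaving them out thus cannot decide the direction of the first ratio.

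Of the 7 genes, 5 were 2-fold or more higher at day 1 than at steady state and 0 were that much lower. Among the 2772 genes that reached 50 CPM in one of these libraries, 19.1% were that much higher and 12.5% that much lower. The same 5 members also passed 4-fold higher (5.09% of genes), and 0 passed 4-fold lower (5.12%). Between day 5 and steady state, 3 of the 5 members that reached 50 CPM, Chil3, Hp and Plac8, were 2-fold or more higher (8.05% of 2584 genes) and 0 lower (9.71%). These 3 passed 4-fold as well (1.93% of genes), and 0 were 4-fold lower (2.71%). Between day 5 and day 1, 1 of 7 members, Lyz1, was at least 2-fold higher (3.46% of 2545 genes) and 5 were at least 2-fold lower (6.52%). At 4-fold, 0 were higher (0.982% of genes) and 3 were lower (1.14%), namely Chil3, Lrg1 and Dmkn. The median log2 ratio was 5.45 for the members and 0.25 for all genes at day 1 against steady state, and -1.65 against -0.19 at day 5 against day 1. These comparisons share libraries, so they are not independent.

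The gene levels were spread over cells in different ways. To compare libraries at equal depth, each cell with at least 1000 UMIs was thinned to 1000 UMIs, which left 627, 2433 and 1748 cells and left out 90, 296 and 278. Chil3 was then detected in 0.159% of cells at steady state (exact interval 0.00404 to 0.885), 25.8% at day 1 (24.0 to 27.6) and 3.60% at day 5 (2.78 to 4.59); without thinning the shares were 0.279%, 37.1% and 5.87%. Plac8 was detected in 1.28%, 38.0% and 18.4% of thinned cells, and Hp in 0.159%, 16.0% and 5.21%. Lrg1 was found in 0.159%, 5.01% and 1.54%, and Dmkn in 0%, 4.44% and 0.229%. The 0 of 627 steady-state cells with a Dmkn UMI put a limit on the share of cells with a UMI, 0.478% from 3 counts, while the exact upper bound is 0.587%.

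Lyz2 was detected in at least 99.4% of cells in each library, with a thinned median of 19, 16 and 21 UMIs per cell. Lyz1 was detected in 3.67%, 3.04% and 7.27% of cells, so it was rare in each library where Lyz2 was near universal. Before thinning, the most UMIs in a day 1 cell was 72 for Chil3, 51 for Hp, 88 for Plac8, 38 for Lrg1 and 43 for Dmkn. Of the 624 Lrg1 UMIs at day 1, the 35 cells with most held at least 50%, against 144 cells for Chil3 and 215 for Plac8.

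**Figure D2:**
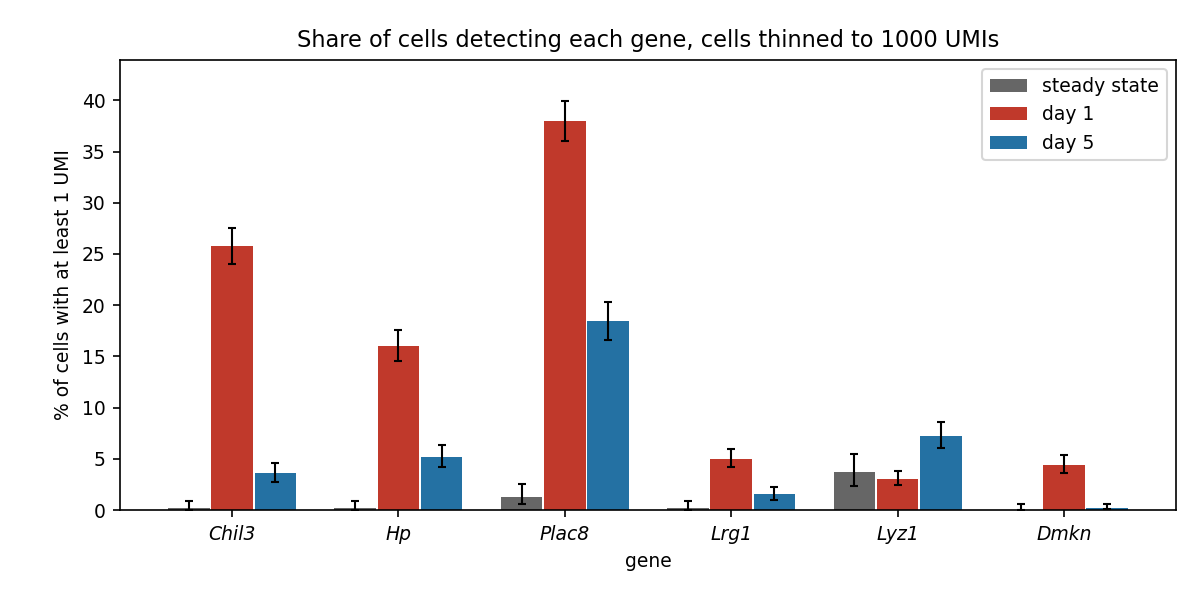
Percent of cells with at least 1 UMI of each gene, after thinning every cell to 1000 UMIs, in the steady state, day 1 and day 5 libraries; lines are exact 95% intervals. Plac8 was found in 38.0% and Chil3 in 25.8% of day 1 cells, and of these 6 genes Lyz1 alone was highest at day 5.

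At steady state the Chil3 and Hp molecules came from 2 of 717 cells. One held 11 UMIs of Chil3, 5 of Hp and 13 of Plac8 among 3649 UMIs. Beside these it held 20 UMIs of Ly6c2, a classical monocyte gene, 5 of the chemokine receptor gene Ccr2 and 1 of Ms4a4c. The other held 5 UMIs of Chil3, 2 of Hp and 0 of Plac8 among 3780 UMIs. It had 1 UMI of Ly6c2, 4 of Ccr2 and 6 of Ms4a4c. The neutrophil genes S100a8 and S100a9 had 0 UMIs in both. The first cell also held 2 UMIs of Mmp8 and 1 of Csf3r, which are on the neutrophil marker list. Each fold of Chil3 or Hp against steady state thus rests on 2 cells, as does the 5.56-fold higher Chil3 of day 5 (3.36 to 9.85).

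Neutrophils also make haptoglobin and Lrg1, so neutrophil markers are given beside these levels. Of 8 neutrophil markers, 4, 6 and 6 had a UMI in the 3 libraries, with a summed level of 126.6, 108.4 and 40.3 CPM, and Ly6g was at 0 in each. Most of the steady-state sum was Mmp9 (113.6 CPM). Without Mmp9 the other 7 markers summed to 12.97, 70.7 and 30.3 CPM, so they were higher at day 1 together with the members; S100a8 had 237 UMIs at day 1 against 0 at steady state, and Mmp8 142 against 2. Their part in the result was not tested beyond the values that follow. S100a8, S100a9 or Retnlg was found in 0, 150 and 8 cells. The 150 day 1 cells (5.50% of cells) held 9.88% of Chil3, 12.5% of Hp, 5.29% of Plac8, 20.5% of Lrg1 and 10.5% of Dmkn UMIs. They also held 7.97% of Lyz2 and 6.74% of Lyz1 UMIs. These cells were deeper, with a median of 3176 UMIs against 2526 over all day 1 monocyte and macrophage cells. Their share of cells thus understates their share of UMIs. Without all cells that hold a UMI of a neutrophil marker other than Mmp9, Chil3 had 665.5 CPM at day 1 against 3.18 CPM at steady state, and Hp had 278.1 CPM against 1.27 CPM. The day 1 levels were thus lower than with these cells, but the folds were larger, 209 for Chil3 (89.5 to 644) and 218 for Hp (60.4 to 1805), because the filter also removed the first of the 2 steady-state cells. Plac8 was then 91.4-fold and Lrg1 33.1-fold higher at day 1.

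When the 3 libraries were clustered with the 7 genes left out, no cluster met the marker rule for a monocyte-like name. The cluster with the highest Vcan level, a proteoglycan gene of classical monocytes, was led by Vcan and Ltb4r1 and held 880 day 1 cells. Chil3 had 1024 CPM there (990.5 to 1058) and Lrg1 137 CPM (125 to 150). It held 77.2% of day 1 Lrg1 UMIs, 67.3% of Dmkn, 64.7% of Chil3, 55.0% of Hp and 50.4% of Plac8, against 44.3% of all UMIs and 31.5% of cells. The lysozymes followed the UMIs, with 46.4% of Lyz1 and 47.1% of Lyz2. These shares depend on the clustering: over 4 other settings and this one, the highest-Vcan cluster held 65.0% to 86.0% of Lrg1, 58.9% to 77.7% of Dmkn, 45.3% to 81.6% of Chil3, 49.4% to 72.9% of Hp and 35.2% to 65.3% of Plac8 UMIs, and 17.4% to 63.2% of all UMIs. Its level over that of the other day 1 cells was 3.20-fold or more for Lrg1 and ranged between 2.03 and 8.04-fold for Dmkn, 2.23 and 3.94-fold for Chil3, 1.53 and 5.24-fold for Hp and 1.04 and 2.58-fold for Plac8, each highest when the 7 genes took part in the clustering. With 1 library per time, a cluster mostly of 1 library may be that library.

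A smaller cluster, led by the interferon response genes Rsad2 and Cxcl10, was high in Plac8, Hp and Chil3. At day 1 Hp had 465 CPM there (405 to 532), above the 381 CPM of the Vcan-led cluster (361 to 402). Its detection intervals overlapped, at 23.6% of thinned cells (16.8 to 31.5) and 20.6% in the Vcan-led cluster (17.9 to 23.4). Chil3 had 982 CPM in the smaller cluster (894 to 1077), an interval that overlaps that of the Vcan-led cluster. The Plac8 level there was 3203 CPM in 39 day 5 cells and 3454 CPM in 145 day 1 cells, and it was detected in 81.6% of the thinned day 5 cells and 79.3% of the thinned day 1 cells. Chil3 in the same cluster had 119 CPM at day 5 (15 UMIs), against 982 CPM at day 1. Plac8 was thus close in the day 5 and day 1 cells of this cluster, while Chil3 was lower at day 5. In the 21 day 5 cells of the Vcan-led cluster, Hp had 697 CPM (528 to 903) against 381 CPM at day 1. Plac8 had 1725 CPM there (1452 to 2034) against 1155 CPM, and Chil3 404 CPM (278 to 567) against 1024 CPM. The lower Hp and Plac8 of the day 5 library were thus not seen inside that small cluster.

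A cluster led by Slpi and Cxcl3 (524 day 1 cells) had 346 CPM of Hp but 14.5 CPM of Lrg1. A cluster led by Ccnyl1, Mt2 and Stard6 (132 cells) had 51.8 CPM of Chil3, 37.0 CPM of Hp and 8178 CPM of Lyz2, with 39.5 CPM of Lrg1. Free RNA can give UMIs in cells that do not express a gene, and its part here was not tested. In the dendritic cell-like cluster, at a median of 4342 UMIs per cell, Chil3 was detected in 1.59% of 63 thinned cells, against 38.0% of 870 cells in the Vcan-led cluster, at a median of 3889 UMIs. Plac8 went the other way, with 1499 CPM in the dendritic cell-like cluster (1354 to 1656) against 1155 CPM in the Vcan-led cluster (1120 to 1191). Its detection intervals overlapped, at 57.1% (44.0 to 69.5) and 49.1% (45.7 to 52.5) of their thinned cells. For Dmkn the detection intervals overlapped too, at 11.1% of the dendritic cell-like cells (4.59 to 21.6) and 6.32% of the Vcan-led cluster (4.80 to 8.15).

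**Figure D3:**
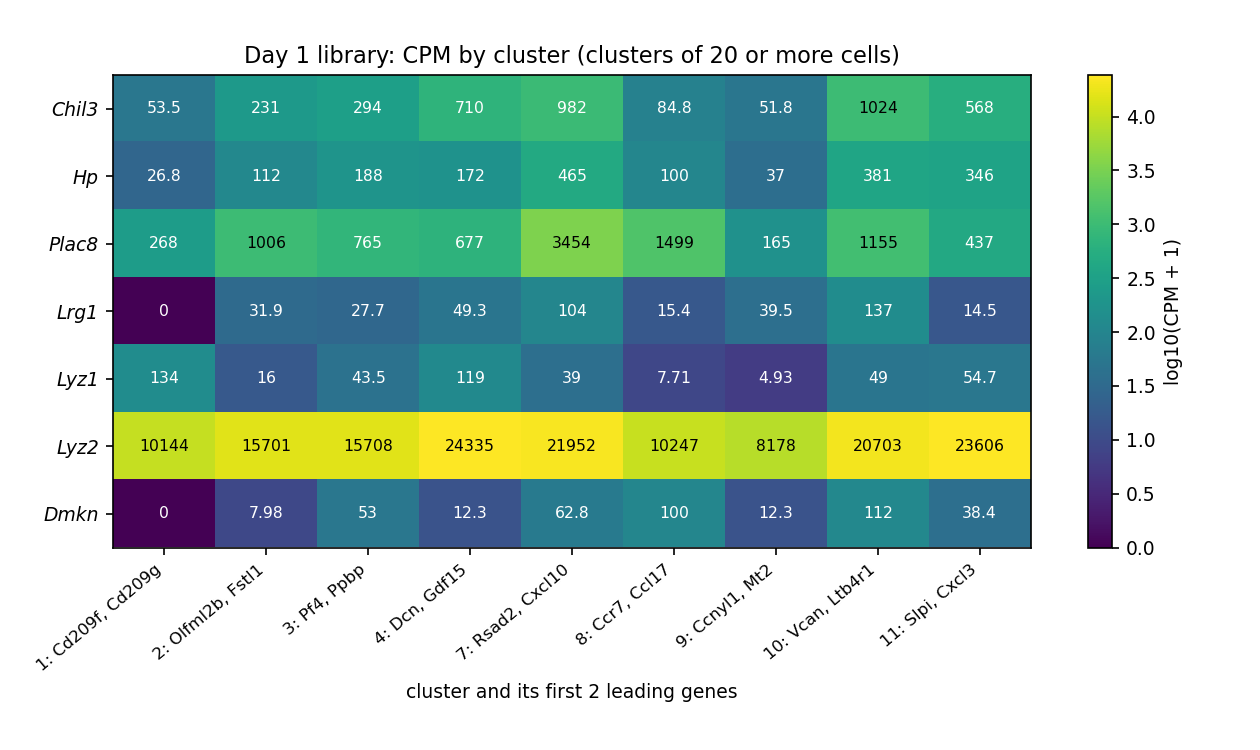
CPM of the 7 genes in each cluster of the day 1 library with 20 or more cells, each named by its number and first 2 leading genes; colour is log10(CPM + 1). Cluster 10, led by Vcan, has 1024 CPM of Chil3 and 137 CPM of Lrg1, and cluster 7, led by Rsad2, has 982 CPM of Chil3, 465 CPM of Hp and 3454 CPM of Plac8.

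At day 1 the genes were found in the same cells more often than the product of their separate shares gives. Of 13 pairs without Lyz2 and with at least 5 cells expected from that product, 12 had a ratio above 1 and 8 had at least 1.5. The ratio was computed for these genes only, so how many other gene pairs exceed 1 was not tested. Hp and Lrg1 had the highest ratio, 2.56: 50 cells held both where the product gives 19.6, and Lrg1 was in 12.8% of the cells with Hp and 3.52% of those without. Hp and Dmkn stood at 2.20, Chil3 and Lrg1 at 1.97 and Chil3 and Hp at 1.61.

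Pairs with Lyz2, which nearly every cell held, could only lie near 1 and are not counted. Plac8 and Lyz1 were the 1 counted pair below 1, at 0.890. Within the Vcan-led cluster alone (870 cells, thinned in a separate draw), the highest ratios were 3.26 for Lrg1 and Dmkn, 2.34 for Hp and Dmkn and 2.06 for Hp and Lrg1. Chil3 and Hp had 1.35, Chil3 and Plac8 1.19 and Lrg1 and Lyz1 0.336. For Lrg1 and Dmkn the value rests on few cells: in the draw over all day 1 cells, 10 cells held both and the ratio was 1.85. Co-detection was thus also seen inside 1 cluster for some pairs. How far the draw enters these values was not tested.

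At day 5 fewer pairs without Lyz2 could be counted, 4 of 15. Chil3 and Plac8 had a ratio of 2.76, with Plac8 in 50.8% of cells with Chil3 and in 17.2% of those without. Hp and Plac8 had 2.51. Hp and Lyz1 had 0.302, with 2 cells holding both where the product gives 6.61. At least 3 of the 6 genes other than Lyz2 were found in 0.159%, 7.03% and 1.09% of cells at steady state, day 1 and day 5, that is in 1, 171 and 19 cells.

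**Figure D4:**
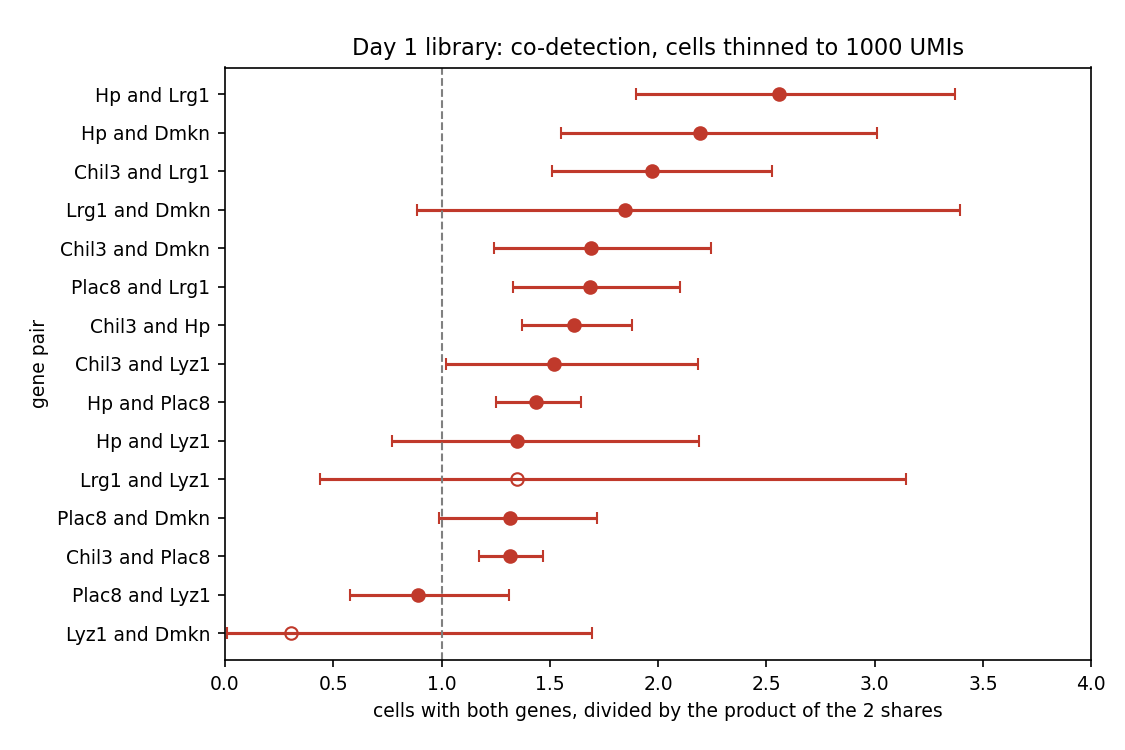
For each pair of the 6 genes other than Lyz2, the number of day 1 cells holding both divided by the number the product of their shares gives, with Poisson 95% intervals of the count; open points have under 5 cells expected and the dashed line marks 1. Hp and Lrg1 lie farthest right at 2.56, and of the filled points only Plac8 and Lyz1 lies left of the line, at 0.890.

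Across 2433 thinned day 1 cells and 1891 other genes, the genes most like each member by Pearson correlation of log counts were modest matches, and all came from the same library. Plac8 was closest to the interferon-induced genes Ifitm3 (0.36) and Ly6e (0.29) and to Ms4a4c (0.34). Chil3 was closest to Napsa (0.20), Ctsc (0.19), the cathepsin C gene, and Il1b (0.17). Hp was closest to Gsr (0.18), the glutathione reductase gene, with Ly6c2 and Slpi at 0.16. Lrg1 was closest to Napsa (0.15), Ifitm6 (0.14) and Saa3 (0.11), and Lyz2 to Ctss (0.26), the cathepsin S gene. For Chil3, Hp and Plac8 the lowest value was with Pf4, a chemokine gene, at -0.19, -0.22 and -0.24. The closest gene reached 0.10 for Dmkn and 0.08 for Lyz1, values too weak to read.

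The share of lysozyme UMIs assigned to Lyz1 was 0.426% at steady state (0.360 to 0.501), 0.243% at day 1 (0.219 to 0.269) and 0.497% at day 5 (0.460 to 0.536). Lyz1 and Lyz2 transcripts are 96.0% identical in the annotation (96.9% over the last 300 bases). Of the 50-base windows of Lyz1, 16.1% occur in Lyz2 (21.9% over the last 300 bases). Part of this count may thus depend on how reads were split between the copies. How far read splitting enters the share was not tested. The Lyz1 UMIs were gathered in few cells: 10 of 717 steady-state cells held 99 of the 146 Lyz1 UMIs, and at day 5 the 10 cells with most Lyz1 held 209 of 661. These cells were picked by their Lyz1 count, so these values only describe them. The 5 highest day 5 cells, at 27 to 34 Lyz1 UMIs each, all lay in the cluster led by Dcn and Gdf15. That cluster met the marker rule for no cell type and held 50.2% of day 5 cells and 66.9% of their UMIs. It held 74.5% of day 5 Lyz1 and 73.0% of Lyz2 UMIs.

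**Figure D5:**
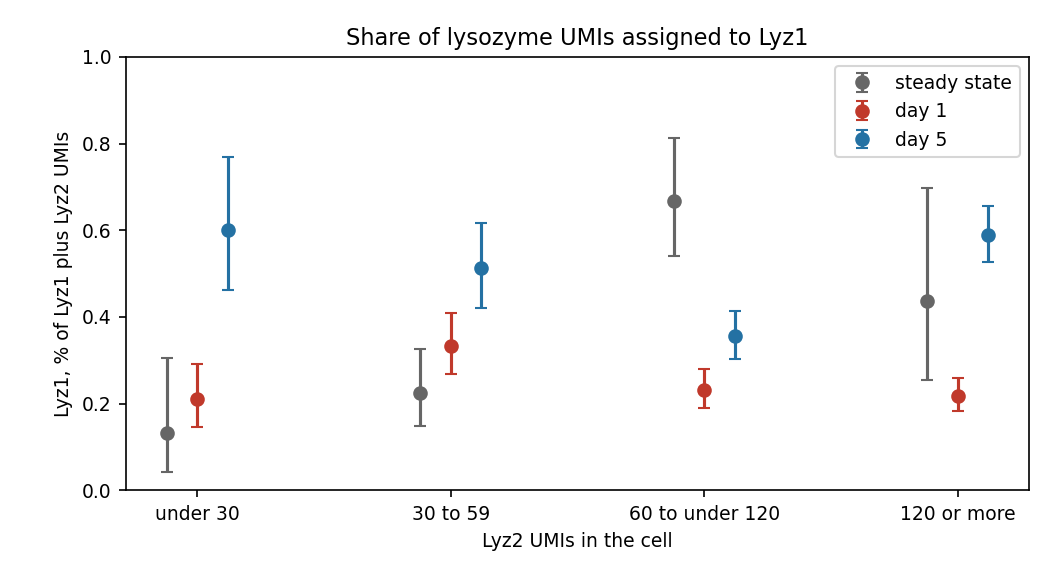
Lyz1 as a percent of Lyz1 plus Lyz2 UMIs in cells grouped by their Lyz2 UMIs, for the steady state, day 1 and day 5 libraries, with exact 95% intervals. Day 1 lies between 0.210% and 0.334% in every group of cells, while steady state ranges between 0.131% and 0.667%.

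Of the 12 genes on a monocyte list, 8 reached 50 CPM. At day 1 against steady state, 4 of these were 2-fold or more higher and 0 were that much lower (19.1% and 12.5% of all genes). Their median log2 ratio was 1.60 (0.25 for all genes), Vcan entering with 3 counts in place of its 0 at steady state. Ly6c2 had 251 CPM at day 1 against 14.2 CPM at steady state, and Ms4a4c 344 CPM against 32.7 CPM. Vcan had 64.1 CPM against 0 UMIs, 34.6-fold higher with 3 counts in place of 0 (exact lower limit 28.0-fold). The list did not move as one: F13a1, its most abundant gene at steady state, had 394 CPM at day 1 against 750 CPM at steady state, 1.90-fold lower, and Ccr2 had 308 CPM against 225 CPM. Between day 5 and day 1, 3 of 8 were at least 2-fold lower and 0 higher (6.52% and 3.46% of all genes).

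Among secreted acute-phase genes, 2 of the 3 that reached 50 CPM were 2-fold or more higher at day 1 than at steady state and 0 lower (19.1% and 12.5% of all genes). Slpi, a protease inhibitor gene, had 396 CPM at day 1 against 0 UMIs at steady state. With 3 counts in place of 0 it was 214-fold higher (exact lower limit 174-fold). Saa3, a serum amyloid gene, had 186 CPM against 0 UMIs, 100-fold higher on that basis (exact lower limit 81.4-fold). Of the granule genes, Prtn3, encoding proteinase 3, had 61.4 CPM at day 1 and 75.8 CPM at day 5, against 1.85 CPM at steady state (3 UMIs). The other primary granule genes were near absent: Mpo had 1 UMI, Elane 6 and Ctsg 1 at day 1. Of 14 secondary granule and neutrophil genes, Mmp9 alone reached 50 CPM, with 37.6 CPM at day 1 against 113.6 CPM at steady state.

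A list of 7 genes linked to haptoglobin, haem or Lrg1 held receptors and an enzyme gene, not only binding partners, and 5 reached 50 CPM. At day 1 against steady state 2 were at least 2-fold higher, Hmox1 and Lrp1 (19.1% of all genes). The 3 at least 2-fold lower were Cd163, Tgfbr2 and Acvrl1 (12.5% of all genes). The median log2 ratio was -1.10 (0.25 for all genes). The receptor Cd163, which takes up haptoglobin bound to haemoglobin, had 46.0 CPM at day 1 against 328.5 CPM at steady state, 7.15-fold lower. Hmox1, the haem oxygenase gene, had 1023 CPM at day 1 against 331.6 CPM at steady state. In the chitinase-like family, Chil4 had 2 UMIs at day 1 and Chil1, Chil5, Chia1 and Chit1 had 0. Sbsn and Krtdap, which neighbour Dmkn among the skin-barrier genes, had 21 and 0 UMIs at day 1. The 4 genes listed beside Plac8 by family or name, Plac8l1, Cnfn, Plac9a and Plac9b, had 0.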

How the data were processed

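Single-cell RNA libraries were made from sciatic nerve macrophages at steady state and 1 and 5 days after crush. Per the submitters' processing notes, Cell Ranger 2.0.2 and the build mm10 were used; the annotation, cell calling and any removal of free RNA or doublets were not given in the sources used here. Whole-number UMI counts per gene and barcode, not normalized, were deposited by the authors and used as they stood. A deposited table pooling the 3 libraries held 97.5% of their UMIs and entered no comparison.

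Barcodes with fewer than 200 genes or over 10% mitochondrial UMIs were left out (6 of 5586). Scrublet called 18 of the remaining cells as doublets (0.323%), too few to rely on, so doublets remain possible. Cells were clustered without integration (scanpy 1.11.5, python-igraph 0.11.9, Leiden resolution 1, 2000 variable genes without the 7 genes, 30 components, 15 neighbours). Resolutions 0.5 and 1.5 and variable genes with the members or without members and lists were alternatives. Monocyte and macrophage cells are all kept cells but the 90 of a dendritic cell-like cluster. A name needed at least 3 markers 2-fold or more above the cells of the other clusters (offset 10 CPM). It also needed 2 or more within the 10 leading genes, with no other type having more there. This scoring rule followed the data.

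Summed UMIs gave CPM with exact Poisson intervals, ratios with exact conditional binomial intervals and shares with Clopper-Pearson intervals (95%, counting error only, scipy 1.17.1). Where a library had 0 UMIs, 3 counts stood in for the absent count, which is not a 95% bound. In time order that floor was 1.85, 0.389 and 0.555 CPM. The scripts were tested on simulated data. Median UMIs per kept cell were 2235, 2555 and 2470. The members and lists were chosen with earlier results of these data known. Genes are named by this rule: all 7 members, the 3 genes most like each member among those in 5% of day 1 cells, and from each list up to 4 genes with the largest day 1 ratio and at least 50 CPM; macrophage genes and list genes below 50 CPM were named after their values were seen.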

Additional observations from a re-analysis of the deposited data

How the results depend on the processing

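All 21 log2 ratios of the members kept their sign under every alternative run; 155 of their alternative values stayed within the interval of the reported value and 34 moved beyond it. Median-of-ratios scaling shifts every log2 ratio by -0.26 (day 1 against steady state), -0.12 (day 5 against steady state) and 0.14 (day 5 against day 1). Under that scaling, 1 member in place of 0, Lyz1, was at least 2-fold lower at day 1 than at steady state, and likewise 1 without cells holding neutrophil markers. At 4-fold, 0 members were higher and 3 lower at day 5 against day 1. Cells with at least 3 of 6 members at day 1 made up 2.71% at 500 UMIs, 11.7% at 1500 UMIs, 17.3% without thinning and 1.52% when 2 UMIs were asked for; at day 5 the shares were 0.247%, 2.05%, 3.60% and 0.114%. Pairs with a co-detection ratio of at least 1.5 at day 1 numbered 5 at 1500 UMIs and 5 without cells holding neutrophil markers, in place of 8. Of the percents of day 1 UMIs in the highest-Vcan cluster, 25 moved beyond the interval under other clusterings and 3 did not. At day 5, in place of 2, they numbered 1 at 500 UMIs, 4 at 1500 UMIs, 6 without thinning and 0 in the Vcan-led cluster. The Lyz1 share at steady state was 0.310% without the 5% of cells with the most UMIs. The cause of these changes was not tested, other than that deeper cells detect more genes by construction. The alternatives on cells with neutrophil markers, on the cells with Chil3 and on the Vcan-led cluster were chosen after seeing the data. Not run were ratios from the pooled table, whose columns were used only as totals, and co-detection in monocyte-like clusters: none was named in the clustering used, and the 1 named when the members took part in the clustering (371 cells) was chosen by the members. Leaving out the steady-state cells with Chil3 fixes the outcome of the Chil3 and Hp ratios, so it is not read. No paired analysis was possible because each time has 1 library. Levels resting on 3 to 32 UMIs at steady state limit the ratios against it.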
